A study of Mus musculus with 11 samples.

Results

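The genes described here belong to the families that carry membrane and protein through the secretory pathway: Rab and Arf GTPases, SNARE proteins, the SNAP adaptors, synaptotagmins, coatomer subunits, Sec genes and TRAPP subunits. They were chosen by gene symbol, as every probe whose platform symbol begins with Rab, Arf, Sec, Stx, Snap or Syt and a digit, with Vamp, Vti1, Trappc, Arfgap or Arfgef, or with Cop and a, b, e, g or z, and the symbols Napa, Napb and Napg. Syt7 and Syt11 were left out. This gave 88 probes for 85 genes, out of 6269 probes for 6041 genes with 1 symbol. No probe of Napa, Napg or an Arfgef gene matched. A few symbols fit the rule by name only: Sec1 is a fucosyltransferase gene of the secretor type, and Snap91 encodes the clathrin assembly protein AP180, not a SNARE.

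RNA came from the neocortex of mouse embryos on a C57BL/6 background. Each of 11 two-colour arrays compared 1 null mutant embryo at embryonic day 18, whose neurons the record describes as synaptically silent, with pooled wild-type neocortex of the same background. The wild-type partner was read as 1 pool of embryos. Its age label is day 18 throughout, apart from the conflict on arrays 1 and 6 described below. The null RNA was labelled with Cy3 on arrays 1, 2, 6, 7, 8 and 10 and with Cy5 on arrays 3, 4, 5, 9 and 11. On arrays 1 and 6 the wild-type channel is given as day 14 in one label field and as day 18 in another. All values are log ratios of null over wild type, taken as log2.

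Vesicles bud from a donor membrane under a coat, are carried and tethered with the help of Rab GTPases, and fuse when a SNARE on the vesicle zips together with SNAREs on the target membrane. COPII coats, with the Sec23 and Sec24 proteins, carry cargo out of the endoplasmic reticulum, and COPI coats, the coatomer recruited by Arf GTPases, carry it back and within the Golgi. In neurons the last step uses a dedicated set: syntaxin 1 and Snap25 on the plasma membrane, Vamp2 on the synaptic vesicle, synaptotagmin 1 as the calcium sensor and Rab3 on the vesicle surface. Most other cells rely on broadly expressed relatives such as Snap23 and Vamp3 for secretion at their surface.

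No source used here states the direction of the ratios, which was read as null over wild type. Xist, the transcript that coats the inactive X chromosome, lay between -7.37 and -4.18 on 6 of 10 arrays and between 0.0024 and 0.67 on the others. Single male null embryos set against a pool of both sexes would give such low values, so this direction is likely but not settled. The lowest Spearman correlation between arrays, without Xist, was -0.078. The arrays carried 4822 to 6316 values each. Array 4 had the fewest and also the widest spread, with an SD over all probes tested of 0.527 against 0.263 to 0.363 on the others. Of the neocortical genes looked up, 8 had a tested probe, but a log ratio gives no level and so does not check the tissue label. Of these, Tbr1 (0.30), Neurod6 (0.40), Neurod1 (0.24) and Emx1 (0.17), transcription factors of cortical excitatory neurons and their progenitors, were higher in the null, and the other 4 did not pass. In bulk tissue, fewer cells of a type and less RNA per cell cannot be told apart.

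Of the 88 probes, 80 for 79 genes were measured on 8 or more arrays, with no fewer than 3 in either dye orientation, and were tested. In the null neocortex 6 of them were higher and 14 lower, with 60 not past an adjusted p of 0.05 in limma, adjusted over all probes by the Benjamini-Hochberg method. Called probes made up 25% of the members, against 28.6% of the 5399 probes tested. In the higher direction the share was 7.5% against 14.7%, and in the lower direction 17.5% against 14.0%. The share of called members lay near that of all probes, and the difference was not tested. The median log2 ratio of the members was -0.053, beside -0.0051 over all probes. Changes were small: the called members differed by 1.11- to 1.69-fold, and 2 of the 20, Stx1a and Syt13, passed 1.5-fold. By family, called probes made up 30% of 20 SNAREs, 37.5% of 8 synaptotagmins, 18.2% of 22 Rabs, 50% of 8 Arf and Arf GAP genes and 11.1% of 9 Sec genes. Differences between these small families were not tested.

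**Figure D1:**
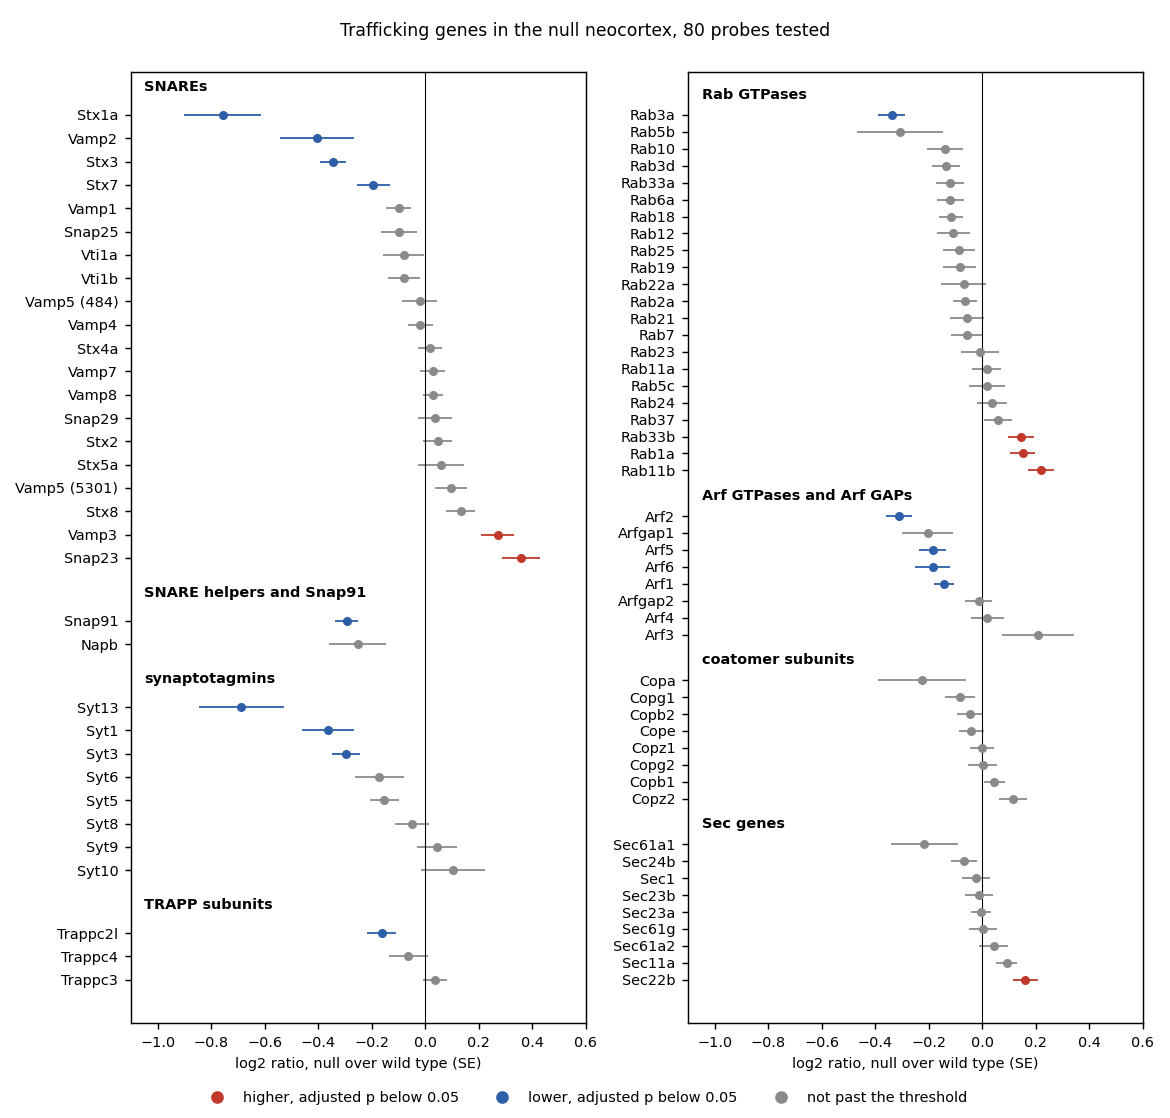
Fitted log2 ratio of null over wild type for each of the 80 tested probes (points, with standard errors as bars), grouped by family; the probe number is given where a gene has more than 1 tested probe. Blue points are lower and red points higher at an adjusted p below 0.05; Stx1a at -0.76 and Syt13 at -0.69 lie furthest to the left, and Snap23 at 0.36 furthest to the right.

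The SNAREs went both ways. Of 20 tested probes for 19 SNARE genes, 4 were lower, 2 were higher and 14 did not pass, with a median of -0.00041. Families were set by symbol stem, so the SNARE Sec22b (0.16, called higher) is counted with the Sec genes. Stx1a, the syntaxin of the presynaptic membrane, ranged from -1.76 to 0.05 over the 11 arrays with a median of -0.54. It was below 0 on 10 arrays and fell by 0.76 ± 0.14 on the log2 scale (SE, n = 11, adjusted p = 0.0017). The low end was set by arrays 3, 4, 5 and 10, at -1.76, -1.59, -1.35 and -1.55, whereas arrays 1, 2, 6, 7 and 8 lay between -0.16 and 0.05. Arrays 9 and 11, with the null RNA in Cy5, lay in between, at -0.54 and -0.71. Vamp2, its partner on the synaptic vesicle, ranged from -1.54 to 0.13 with a median of -0.15 and fell by 0.41 ± 0.14 (adjusted p = 0.042). Most of that difference came from arrays 3, 4 and 10, at -1.06, -1.54 and -1.15. The other 8 values of Vamp2 lay between -0.27 and 0.13.

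Stx3, a relative of Stx1a found at apical membranes and ribbon synapses, had the smallest adjusted p of all members. Its values ran from -0.55 to -0.11 with a median of -0.38, all 11 below 0, and it fell by 0.35 ± 0.05 (adjusted p = 0.00016). Unlike Stx1a, it had no array apart from the rest. Stx7, a syntaxin of late endosomes, fell by 0.19 ± 0.06 (9 of 11 arrays lower, adjusted p = 0.030). The remaining plasma membrane syntaxins Stx2 (0.05) and Stx4a (0.02) were close to 0 and did not pass.

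Snap25, the other neuronal SNARE of the plasma membrane, was not called. It ranged from -0.75 to 0.22 with a median of -0.02, and its fitted ratio of -0.10 ± 0.07 did not pass (adjusted p = 0.29). Its lowest values were on arrays 4 and 3, at -0.75 and -0.35, and its difference from Stx1a and Vamp2 was not tested. Its broadly expressed relative Snap23 had the highest ratio of all members. Snap23 ranged from -0.10 to 0.73 with a median of 0.30, was above 0 on 9 of 10 arrays and rose by 0.36 ± 0.07 (n = 10, adjusted p = 0.0024). Array 10 gave its only value below 0. Vamp3, the vesicle SNARE of recycling endosomes also known as cellubrevin, was above 0 on all 9 arrays that measured it. Its values ran from 0.01 to 0.55 with a median of 0.29, and it rose by 0.27 ± 0.06 (n = 9 arrays, limma adjusted p = 0.0069).

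Set side by side on the same arrays, Vamp3 exceeded Vamp2 on 9 of 9 arrays, by 0.44 ± 0.31 (SD), and Snap23 exceeded Snap25 on 8 of 10, by 0.35 ± 0.29. These pairs were put together after their values were seen, and the differences were not tested. The other vesicle SNAREs did not pass: Vamp1 had a ratio of -0.10, Vamp4 of -0.02, Vamp7 and Vamp8 of 0.03, and the probes of Vamp5 gave 0.10 and -0.02. The Golgi and endosomal SNAREs Vti1a (-0.08), Vti1b (-0.08) and Stx8 (0.13), the Golgi syntaxin Stx5a (0.06) and Snap29 (0.04) did not pass either. Stx8 was nonetheless above 0 on 10 of 11 arrays. The second probe of Vamp1 had a value on 1 array and was not tested.

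After fusion the SNARE complex is taken apart by the ATPase Nsf and its SNAP adaptors. Napb, the brain form of the SNAP adaptor, ranged from -1.04 to 0.14 and had a ratio of -0.25 ± 0.11 that did not pass (n = 10, adjusted p = 0.095). Array 3 at -1.04 and array 10 at -0.74 were its lowest values. Its second probe, with 4 values between -0.10 and 0.06, was not tested. Nsf itself, which is outside the symbol rule, fell by 0.71 ± 0.06 on 11 of 11 arrays. Snap91, which assembles clathrin on retrieved synaptic vesicle membrane, was low on every array. Its values ran from -0.57 to -0.15 with a median of -0.26, and it fell by 0.29 ± 0.04 (adjusted p = 0.00028).

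Synaptotagmins were lower or not called. Of 8 tested members 3 fell and 5 did not pass in limma, with a median of -0.16. At an unadjusted p below 0.05 there were 4 lower and 0 higher, beside 21 lower and 9 higher among all 80 members. Unadjusted counts over all probes were not made. Syt13, a synaptotagmin that lacks the calcium-binding residues of Syt1, ranged from -1.54 to 0.41 with a median of -0.61. It fell by 0.69 ± 0.16 (10 of 11 arrays lower, adjusted p = 0.0058). Its lowest arrays were 7, 9 and 11, at -1.54, -1.54 and -1.39, and array 4 gave the only value above 0. Syt1, the calcium sensor for fast transmitter release, ranged from -0.99 to 0.24 with a median of -0.13 and fell by 0.36 ± 0.10 (10 of 11 arrays lower, adjusted p = 0.014). Arrays 3, 4, 5 and 10 gave Syt1 values of -0.99, -0.88, -0.77 and -0.76, and the other 7 lay between -0.16 and 0.24. Syt1 and Syt13 were thus lowest on different arrays.

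Syt3, another synaptotagmin of the brain, ranged from -0.51 to 0.06 with a median of -0.24 and fell by 0.30 ± 0.05 (8 of 9 arrays lower, limma adjusted p = 0.0017). Syt5, at -0.15 ± 0.05, was just short of the threshold (adjusted p = 0.051). Syt6 (-0.17), Syt8 (-0.05), Syt9 (0.04) and Syt10 (0.10) did not pass. The values of Syt10 were spread from -0.51 to 1.20. Syt4 had values on 7 arrays only and was not tested; all 7 were below 0, from -0.33 to -0.06. Syt2 had 2 values, of opposite sign.

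Among 22 tested Rab GTPases, 3 were higher, 1 was lower and 18 did not pass, with a median of -0.068. The lower one was Rab3a, the Rab protein of synaptic vesicles. It ranged from -0.88 to 0.09 with a median of -0.21 and fell by 0.34 ± 0.05 (10 of 11 arrays lower, adjusted p = 0.00029). The difference was unequal between dye orientations, with a mean of -0.09 on the Cy3 arrays and -0.58 on the Cy5 arrays. The dye term of Rab3a did not pass (adjusted p = 0.060), nor did that of any of the 80 members in limma. Of these, 17 had an unadjusted p below 0.05 for the dye term, a count not made over all probes. Rab3d, its relative on secretory granules outside neurons, had a ratio of -0.14 ± 0.05 that did not pass (adjusted p = 0.069).

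The 3 Rab genes that rose were Rab11b, Rab1a and Rab33b. Rab11b, a Rab of recycling endosomes, ranged from -0.01 to 0.53 with a median of 0.29 and rose by 0.22 ± 0.05 (10 of 11 arrays higher, adjusted p = 0.0039). Rab1a, which serves transport from the endoplasmic reticulum to the Golgi, rose by 0.15 ± 0.05 (8 of 11 arrays higher, adjusted p = 0.026). Rab33b, a Golgi Rab linked to autophagosome formation, rose by 0.14 ± 0.05 (9 of 11 arrays higher, adjusted p = 0.043). Their close relatives lay lower: Rab11a had a ratio of 0.02 and Rab33a of -0.12, neither past the threshold. Rab33b exceeded Rab33a on 11 of 11 arrays, by 0.25 ± 0.16 (SD), and Rab11b exceeded Rab11a on 8 of 11, by 0.21 ± 0.27. The differences within these pairs were not tested.

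The tested Rabs of early and late endosomes were not called. Rab5c had a ratio of 0.02, Rab7 of -0.06, Rab21 of -0.06 and Rab22a of -0.07. Rab5b, of early endosomes, had a ratio of -0.31 ± 0.16 (n = 10, adjusted p = 0.17) that averaged opposite values: arrays 3, 4, 5 and 10 lay between -1.46 and -0.74, and the other 6 between 0.16 and 0.25. Rab18, a Rab of lipid droplets and the endoplasmic reticulum, was below 0 on 10 of 11 arrays at -0.12 ± 0.04 and missed the threshold (adjusted p = 0.059). The Golgi Rab Rab6a (-0.12), Rab10 (-0.14), Rab12 (-0.11) and Rab2a (-0.06) also did not pass. Rab17, Rab20, Rab27a and Rab4a had values on 4 to 6 arrays and were not tested.

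**Figure D2:**
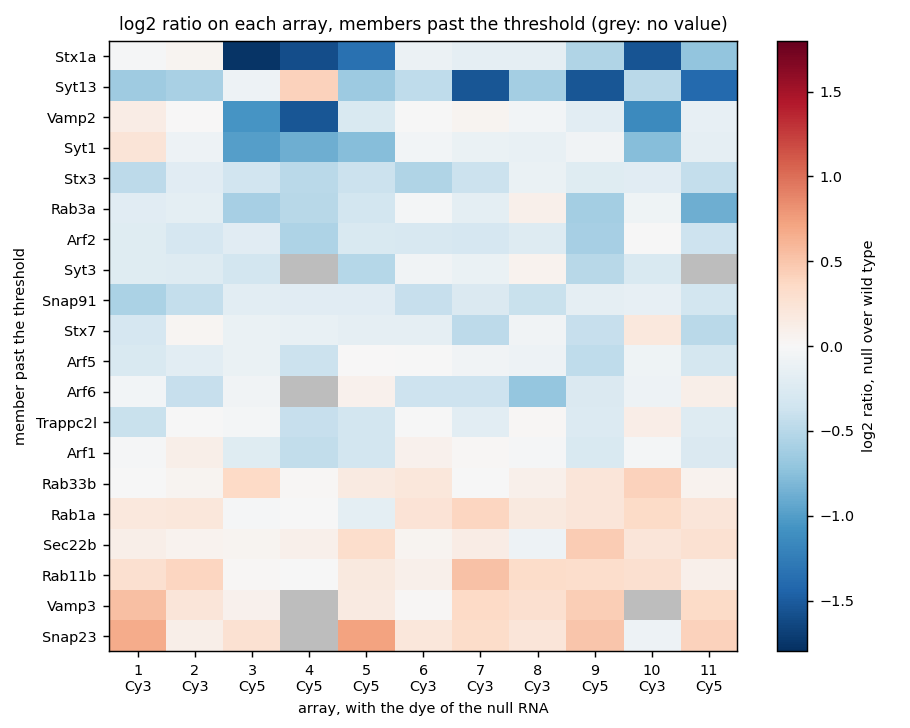
Log2 ratio of null over wild type on each of the 11 arrays (columns, with the dye of the null RNA) for the 20 members past the threshold (rows, sorted by fitted ratio); blue is lower in the null, red higher, and grey marks a missing value. Stx1a and Syt1 are darkest on arrays 3, 4, 5 and 10, Vamp2 on arrays 3, 4 and 10 and Syt13 on arrays 7, 9 and 11, whereas Stx3 and Snap91 are pale blue on all 11.

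The Arf GTPases recruit coats to membranes. Of 8 tested probes for Arf GTPases and Arf GAPs, 4 fell and 4 did not pass in limma, with a median of -0.17. At an unadjusted p below 0.05 the count was the same, 4 lower and 0 higher, beside 21 lower and 9 higher among all 80 members. Over all probes this count was not made, so it has no background here. Arf2, closely related to Arf1 and Arf3, ranged from -0.59 to -0.01 with a median of -0.29. It was below 0 on 11 of 11 arrays and fell by 0.31 ± 0.05 (adjusted p = 0.00035). Arf1, which recruits coatomer to the Golgi, ranged from -0.45 to 0.10 with a median of -0.04. It fell by 0.14 ± 0.04 (8 of 11 arrays lower, adjusted p = 0.012), with a mean of 0.02 on the Cy3 arrays and -0.31 on the Cy5 arrays. Its fitted ratio thus came from the Cy5 arrays, and without the dye term Arf1 did not pass (-0.13, adjusted p = 0.12). Arf5, another Golgi Arf, ranged from -0.45 to 0.01 with a median of -0.12 and fell by 0.19 ± 0.05 (10 of 11 arrays lower, adjusted p = 0.013). Arf6, which acts at the plasma membrane, fell by 0.19 ± 0.07 (8 of 10 arrays lower, adjusted p = 0.0496).

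Arf3 and Arf4 did not share this. Arf4 had a ratio of 0.02. Arf3 had a ratio of 0.21 ± 0.13 (adjusted p = 0.27), with values from -0.83 on array 10 to 0.93 on array 7. The GTPase-activating protein Arfgap1 had a ratio of -0.20 ± 0.10 (adjusted p = 0.13). Its 4 lowest values were on arrays 3, 4, 5 and 10, all at -0.30 or below. Arfgap2 was near 0, at -0.01.

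Coatomer, the COPI coat itself, was not called in any subunit. In limma 0 of the 8 tested coatomer subunits passed, and their median was -0.022. The smallest adjusted p was 0.11, for Copz2 at 0.12. Copz2 was also the only 1 with an unadjusted p below 0.05. Copa, the alpha subunit, had a ratio of -0.23 ± 0.16 (adjusted p = 0.33) from values that split: -0.69, -1.63, -0.82 and -0.87 on arrays 3, 4, 5 and 10, and 0.05 to 0.52 on the other 7. The beta subunits Copb1 (0.05) and Copb2 (-0.05), the gamma subunit Copg1 (-0.08) and the epsilon subunit Cope (-0.04) showed no such split.

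Of 9 tested Sec genes 1 rose and 8 did not pass, with a median of -0.0062. Sec22b, a SNARE of traffic between the endoplasmic reticulum and the Golgi, ranged from -0.09 to 0.45 with a median of 0.10 and rose by 0.16 ± 0.05 (10 of 11 arrays higher, adjusted p = 0.021). The COPII subunits Sec23a, Sec23b and Sec24b had ratios of -0.0062, -0.01 and -0.07. Sec23a varied least of all tested members, with an SD of 0.067 over the arrays. Sec61a1, the main pore subunit through which new proteins enter the endoplasmic reticulum, had a ratio of -0.22 ± 0.13 (adjusted p = 0.21). Its values on arrays 3, 4, 5 and 10 lay between -1.27 and -0.38, and the other 7 between -0.03 and 0.26. The signal peptidase subunit Sec11a (0.09), the translocon subunits Sec61a2 (0.04) and Sec61g (0.0024) and the fucosyltransferase gene Sec1 (-0.02) did not pass. Of the TRAPP subunits, which tether vesicles at the Golgi, Trappc2l fell by 0.16 ± 0.05 (9 of 11 arrays lower, adjusted p = 0.035), while Trappc3 (0.04) and Trappc4 (-0.06) did not pass.

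The promoters of these genes were read from RefSeq sequence of GRCm38.p6, as windows of 300 bases from 250 before to 50 after the annotated start; 71 of the 85 genes matched an entry. The windows were searched on both strands for the cyclic AMP response element TGACGTCA, the core of the unfolded protein response element TGACGTGG, the GC box GGGCGG, the CCAAT box CCAAT and the TATA box TATAAA, of which TGACGTCA and TGACGTGG share their first 6 bases and cannot match the same place. The core TGACGTGG was in 5 of 71 windows of members, or 7.04%, against 119 of 17492 protein-coding promoters, or 0.68%. All 5 belong to genes of transport between the endoplasmic reticulum and the Golgi: Copb1, Copb2, Sec23a, Stx5a and Arf1. Of these, Arf1 was called lower and the other 4 had log2 ratios between -0.05 and 0.06. The GC box was in 66.2% of members against 46.3% of all promoters, and the TATA box in 2.82% against 13.3%. The response element TGACGTCA was in 2.82% against 2.34%, and in 0 of the 11 lower and 0 of the 5 higher members with a window. The members' windows were also richer in G and C, with a median of 63.3% against 56.3%. A match is a description of the letters and not a bound site, and the motifs were chosen after the expression values were seen.

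Shown are 4 of the windows that hold TGACGTGG, beside those of Stx1a and Snap23, the SNARE genes with the lowest and the highest ratio, which hold none. Capitals mark the searched motifs on either strand, so that CCACGTCA is TGACGTGG read on the other strand, CCGCCC the GC box and ATTGG the CCAAT box. Stx5a holds TGACGTGG on both strands. Coordinates are chr7:114254631-114254930, minus strand (Copb1), chr9:98563481-98563780, plus strand (Copb2), chr19:8741174-8741473, plus strand (Stx5a), chr11:59228218-59228517, minus strand (Arf1), chr5:135023232-135023531, plus strand (Stx1a) and chr2:120567421-120567720, plus strand (Snap23), each printed 5′ to 3′ on the gene's strand.
Copb1: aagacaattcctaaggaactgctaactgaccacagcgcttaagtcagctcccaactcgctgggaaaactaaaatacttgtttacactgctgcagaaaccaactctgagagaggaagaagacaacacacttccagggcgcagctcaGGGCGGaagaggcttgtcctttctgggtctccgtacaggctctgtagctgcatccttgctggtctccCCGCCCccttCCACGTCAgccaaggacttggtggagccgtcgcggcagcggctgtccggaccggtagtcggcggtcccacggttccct
Copb2: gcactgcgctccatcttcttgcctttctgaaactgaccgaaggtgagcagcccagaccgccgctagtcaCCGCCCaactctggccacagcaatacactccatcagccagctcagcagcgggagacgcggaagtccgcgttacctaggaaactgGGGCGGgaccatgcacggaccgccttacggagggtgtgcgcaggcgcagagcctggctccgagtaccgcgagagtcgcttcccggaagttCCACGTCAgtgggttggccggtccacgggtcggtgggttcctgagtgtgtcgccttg
Stx5a: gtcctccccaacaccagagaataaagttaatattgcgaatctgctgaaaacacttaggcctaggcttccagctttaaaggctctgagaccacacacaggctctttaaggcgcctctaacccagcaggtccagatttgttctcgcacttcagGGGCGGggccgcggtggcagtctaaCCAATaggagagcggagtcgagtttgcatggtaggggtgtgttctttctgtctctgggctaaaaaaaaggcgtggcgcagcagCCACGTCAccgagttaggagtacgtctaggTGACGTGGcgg
Arf1: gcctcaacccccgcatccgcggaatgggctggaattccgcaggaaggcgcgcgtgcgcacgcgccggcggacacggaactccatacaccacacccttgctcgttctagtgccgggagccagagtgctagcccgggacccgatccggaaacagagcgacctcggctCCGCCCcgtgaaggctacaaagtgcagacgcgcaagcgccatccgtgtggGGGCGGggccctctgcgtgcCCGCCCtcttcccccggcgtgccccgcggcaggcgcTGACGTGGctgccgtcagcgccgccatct
Stx1a: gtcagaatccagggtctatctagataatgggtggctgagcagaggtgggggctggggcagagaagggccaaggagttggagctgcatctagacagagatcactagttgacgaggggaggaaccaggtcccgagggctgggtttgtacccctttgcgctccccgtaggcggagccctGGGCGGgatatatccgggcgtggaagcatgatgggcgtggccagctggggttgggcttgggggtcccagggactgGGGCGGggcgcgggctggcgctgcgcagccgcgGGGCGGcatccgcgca
Snap23: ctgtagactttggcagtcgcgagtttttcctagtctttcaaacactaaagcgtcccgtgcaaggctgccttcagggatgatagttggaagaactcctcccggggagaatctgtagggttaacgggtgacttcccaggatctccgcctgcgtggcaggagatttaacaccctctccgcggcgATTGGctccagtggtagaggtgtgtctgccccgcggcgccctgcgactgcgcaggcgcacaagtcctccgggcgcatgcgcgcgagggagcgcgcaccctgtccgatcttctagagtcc

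Several members shared a split between arrays that the mean ratio hides. An SD over arrays of at least 0.4, a limit set after the values were seen, was reached by 9 of 80 members (11.2%) and by 7.87% of all probes tested. At a limit of 0.3 the shares were 18.8% and 18.5%, and the median SD was 0.191 for the members and 0.206 for all probes. In 6 of these 9, namely Stx1a, Copa, Rab5b, Vamp2, Sec61a1 and Syt1, the 4 lowest values were those of arrays 3, 4, 5 and 10. For Stx1a, arrays 11 and 9 came next, so that all its Cy5 values lay below its Cy3 values other than array 10. The null RNA was in Cy5 on arrays 3, 4 and 5 and in Cy3 on array 10. These 4 arrays thus held both dye orientations. Over all members with values on these 4 arrays, 8 of 69 (11.6%) had their 4 lowest values there, Arfgap1 and Syt6 being the others. Among all probes tested it was 323 of 4447 (7.26%), and among all probes with an SD of at least 0.4 it was 143 of 308 (46.4%). Many probes outside these families thus shared the split. The 4 arrays were also chosen after the members' values were seen, which favours the members' shares over those of all probes. Among the members with the split were the neuronal genes Stx1a, Vamp2 and Syt1 and the general secretory genes Copa and Sec61a1. Rab3a and Snap91, also of synaptic vesicles, did not have it. Neuronal and general secretory genes were not compared.

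**Figure D3:**
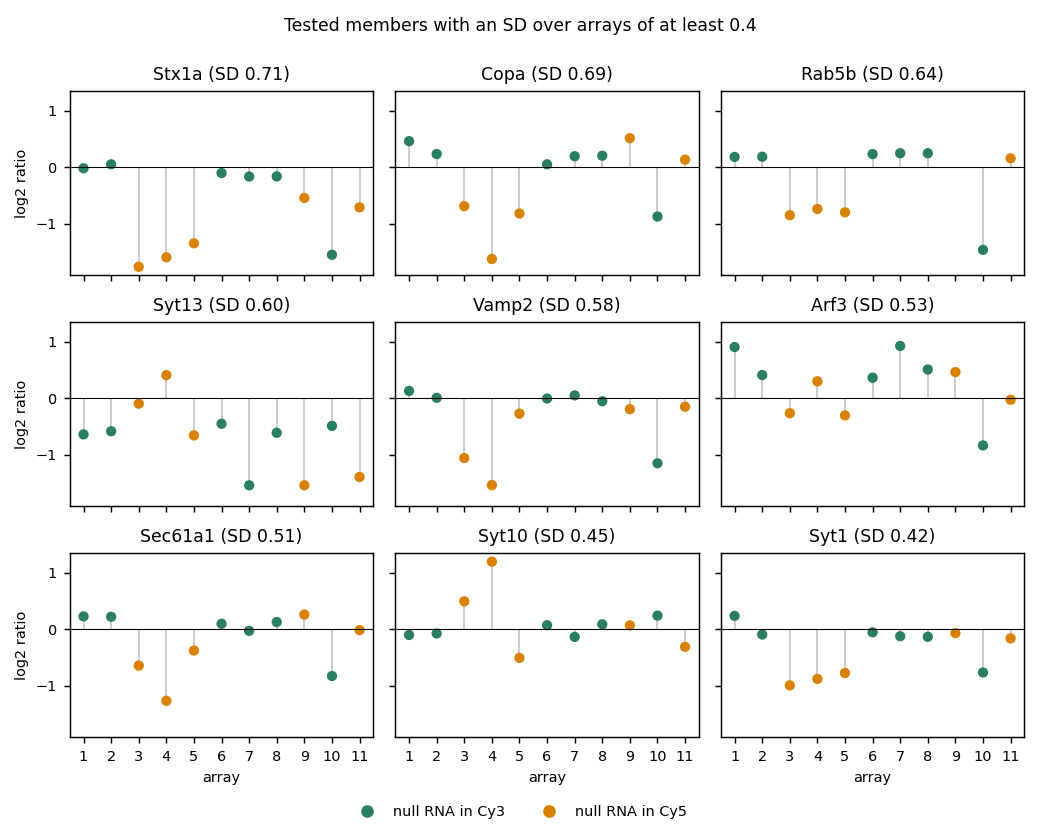
Log2 ratio of null over wild type (vertical axis) on each of the 11 arrays (horizontal axis) for the 9 tested members with an SD over arrays of at least 0.4; green points have the null RNA in Cy3 and orange points in Cy5. Stx1a, Copa, Rab5b, Vamp2, Sec61a1 and Syt1 dip together on arrays 3, 4, 5 and 10, while Syt13 is lowest on arrays 7, 9 and 11.

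Without arrays 3, 4 and 10, on which synaptic genes were already known to be low, 7 members were higher and 15 lower. Beside 28.6% of all probes on 11 arrays, this fit called 34.4% of 5354 probes. Vamp2 then had a ratio of -0.09 ± 0.04 (adjusted p = 0.12) and Syt1 one of -0.18 ± 0.08 (adjusted p = 0.078), neither past the threshold. Stx1a was still lower, by a smaller amount, and fell by 0.47 ± 0.08 (adjusted p = 0.00056), whereas Syt13 fell by 0.98 ± 0.12. Snap23 (0.43), Vamp3 (0.30), Rab11b (0.26), Stx3 (-0.34), Rab3a (-0.35), Arf2 (-0.34) and Snap91 (-0.32) were called in the same direction. Vamp3 had no value on arrays 4 and 10, and Snap23 none on array 4. For these genes the fit therefore dropped fewer values and says less. Rab33b, at 0.11, was not (adjusted p = 0.082). Arf3 (0.33), Stx5a (0.22), Rab6a (-0.20), Rab33a (-0.18) and Rab19 (-0.19) passed there but not on all 11 arrays. When array 5 was left out as well, Copa turned to 0.28 ± 0.06 (adjusted p = 0.0056). Ratios moved both ways in these fits. For the members whose low values on these arrays led to leaving them out, such as Copa, Stx1a and Vamp2, the rise is by construction.

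**Figure D4:**
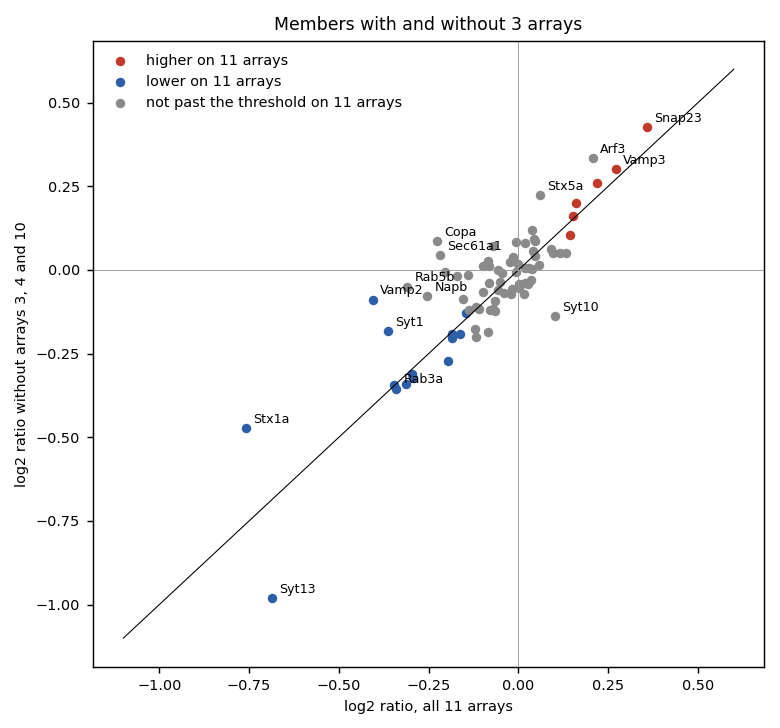
Fitted log2 ratio of each tested member on all 11 arrays (horizontal axis) and without arrays 3, 4 and 10 (vertical axis), with the line of equal values; colours give the call on all 11 arrays. Stx1a, Vamp2, Syt1, Copa, Sec61a1 and Rab5b lie above the line, Syt13 below it, and Snap23 and Vamp3 close to it. Vamp3 had no value on arrays 4 and 10 to leave out, and Snap23 none on array 4.

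Leaving out each array in turn, 13 of the 20 called members passed every time: Stx1a, Stx3, Snap23, Vamp3, Snap91, Syt1, Syt3, Syt13, Rab3a, Rab11b, Arf1, Arf2 and Arf5. The other 7 lost their call in some fits, and the ratios given here span all of their leave-one-out fits. Arf6 (-0.21 to -0.15) did not pass without array 2, 3, 5, 6, 7, 8, 9 or 11. Rab33b (0.12 to 0.16) did not pass without array 2, 3, 5, 6, 8, 9, 10 or 11. Vamp2 (-0.47 to -0.29) did not pass without array 2, 3, 4, 6, 7, 8 or 10. Trappc2l (-0.19 to -0.13) needed arrays 1, 4, 5, 7, 9 and 11, Stx7 (-0.23 to -0.16) arrays 1, 6, 7, 9 and 11, Rab1a (0.13 to 0.18) arrays 7, 9 and 11, and Sec22b (0.13 to 0.18) array 9. None of these 7 changed direction in a leave-one-out fit. On the 6 Cy3 arrays alone, Syt13, Stx3, Arf2, Arf6, Rab1a, Rab11b, Vamp3 and Snap91 passed among the called members. On the 5 Cy5 arrays alone Stx1a, Stx3, Snap23, Syt1, Rab3a, Arf1 and Arf2 did. Stx3 and Arf2 were therefore the only members called in both orientations. Stx1a was -0.32 (adjusted p = 0.23) on the Cy3 arrays and -1.19 (adjusted p = 0.0078) on the Cy5 arrays.

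Genes that work with these families, from lists drawn up with earlier results of these data known, moved unevenly. Of 15 SNARE regulators, a list that also holds SNAREs such as Ykt6, 3 rose, 3 fell and 9 did not pass (40% called, median -0.049). Stxbp2 (0.30) and Stxbp3 (0.19), which bind syntaxins of many cell types, and Snapin (0.20), which binds Snap25, rose. Besides Nsf, those that fell were the SNARE Ykt6, by 0.24 ± 0.08, and the complexin Cplx1, which clamps and primes SNARE complexes, by 0.16 ± 0.06; both are named to complete the count. Of 14 Rab regulators and effectors only the active zone protein Rims2 passed, and it fell by 0.23 ± 0.07 (7.14% called). Of 16 genes of endoplasmic reticulum and Golgi transport 3 fell, Srprb (-0.16), Gorasp2 (-0.20) and Surf4 (-0.21), and 13 did not pass (median -0.076). Of 19 clathrin adaptors and coats 3 fell, among them Ap2m1 (-0.17), the cargo-binding subunit of the endocytic adaptor, and the neuronal adaptor subunit Ap3b2 (-0.14), and Ap4b1 rose (0.15). Epn2 (-0.21) was the third that fell. Of 6 Arf-like genes and Arf regulators Arl2 fell by 0.19 ± 0.05, and of 4 exocyst genes Ralb rose by 0.18 ± 0.05. Each share was at or below the background of 28.6% except that of the SNARE regulators.

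Lists of cell type markers were also looked up. Of 20 probes for 18 neuron markers, 6 fell and 1 rose (median -0.093). This was 35% called and 30% lower, against 28.6% and 14.0% of all probes. Syt1 and Snap25 are in that list too. Its median was lowest on arrays 3, 4 and 10, at -0.35, -0.29 and -0.25, and lay between -0.09 and 0.07 on the other 8, array 5 included. Of 13 microglia and macrophage markers 9 rose and 3 fell (92.3% called, median 0.63), with medians between 0.20 and 0.73 on single arrays. Of 10 probes for 9 astrocyte markers 5 rose and 2 fell (70% called, median 0.15). Snap23 and Vamp3 are expressed in glia and macrophages as well as in neurons, and Stx1a, Vamp2, Syt1 and Rab3a mainly in neurons. Neuronal Snap25 (-0.10) and the brain SNAP adaptor Napb (-0.25) were not called. A log ratio does not show which markers are expressed at or near background. The part of these marker shifts in the members' ratios was not tested.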

How the data were processed

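RNA of null mutant neocortex was compared with pooled wild-type neocortex on 11 two-colour arrays, each null embryo counted as 1 replicate and grouped by the labels. The authors deposited log ratios per probe and array, read here as log2. Log base, direction, background correction and normalization: no source used here states them, and base 2 was assumed. Column means ran from -0.0040 to 0.0030 and medians from -0.045 to 0.044: each array looks centred, and a shift of all transcripts would not be seen. Of the 6856 probes 153 had no value, and 17.3% of all cells were empty. Scanner intensities were not used here, so dim probes were not filtered, and precision is limited by how many arrays there are.

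Probes were named from the platform annotation. Symbols were looked up through Entrez identifiers of GRCm38.p6, which were found for 6250 probes with 1 symbol, whether or not the symbol changed. Another 581 probes had no symbol and 6 had several. Probes with values on at least 8 arrays, 3 or more in each dye orientation, were fitted in limma 3.58.1 (R 4.3.3) with a mean and a dye term, and p-values were adjusted over all 5399 such probes. A call is an adjusted p below 0.05. The pool was read as 1 control, so the test against 0 leaves out the spread among wild-type embryos. Nothing says how the embryos were spread over litters, so p-values measure the spread between these samples. The script was tested on simulated data.

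The members, gene lists and tests were chosen with earlier results of these data known. Every called member may be named, with the lowest, median and highest array for the 12 of smallest adjusted p. Uncalled members are named beside a paralog or to complete a complex, and up to 4 genes of each list. The SD limit, the motifs, the paralog pairs and the fit without arrays 3, 4, 5 and 10 were chosen after the values were seen. The check of the mutated gene is not reported here. Alternatives changed the dye term, arrays, centring, scaling, weights, filter, variance and threshold.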

Additional observations from a re-analysis of the deposited data

Results flagged for a closer look

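Within each dye orientation, 158 sets of 4 to 6 values of a tested member were searched for an array that stood apart from the rest by Dixon's criterion. It was met in 19, where chance alone gives about 1 in 20 sets, or 7.9. Array 10 accounted for 12 of the 19. The search was not made over all probes. Over all probes tested, array 10 had the widest spread of the Cy3 arrays, with an SD of 0.363 against 0.263 to 0.320.

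On array 10 the null RNA carried Cy3. It was the lowest of the Cy3 arrays for Stx1a (-1.55, the others from -0.16 to 0.05), Rab5b (-1.46, the others from 0.18 to 0.25), Vamp2 (-1.15, the others from -0.05 to 0.13), Copa (-0.87), Arf3 (-0.83), Sec61a1 (-0.83), Syt1 (-0.76) and Syt6 (-0.68). It was also lowest for Rab25 (-0.48), Stx5a (-0.48) and Snap29 (-0.35). For Arf2 it was instead the highest, at -0.011, with the others from -0.31 to -0.22.

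The remaining values lay on other arrays. Syt13 was -1.54 on array 7, with the other Cy3 arrays from -0.64 to -0.45. Rab18 was 0.11 on array 2, the only value of Rab18 above 0. Vamp1 was -0.37 on array 2 among the Cy3 arrays and -0.29 on array 4 among the Cy5 arrays. Arfgap2 was -0.33 on array 4, with the other Cy5 arrays from 0.10 to 0.19. Rab5b was 0.16 on array 11, with the other 3 Cy5 values from -0.85 to -0.74. Snap91 was -0.33 on array 11, with the other Cy5 arrays from -0.21 to -0.16.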

How the results depend on the processing

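On all 11 arrays 6 members were higher and 14 lower. Both counts moved with fewer arrays or a stricter threshold: to 3 higher and 6 lower on the Cy3 arrays alone, 1 and 6 on the Cy5 arrays alone, and 3 and 7 at an adjusted p of 0.01. Without arrays 1 and 6, whose wild-type channel carries a day 14 label, 3 were higher. Without arrays 3, 4, 5 and 10, chosen after the values were seen, 10 were higher. Leaving out single arrays gave 3 to 6 higher, the 3 without array 9, and 10 to 13 lower. Over all probes the 1545 calls became 454 on the Cy5 arrays and 811 at an adjusted p of 0.01, and 1202 to 1596 with single arrays left out. The share of all probes called was 20.6% on the Cy3 arrays, 8.41% on the Cy5 arrays and 15% at 0.01. It was 19.4% without arrays 1 and 6, and 38.3% of 4774 probes without arrays 3, 4, 5 and 10. Among the members' ratios, Copa turned to 0.28 without arrays 3, 4, 5 and 10, and Arf1 to 0.019 on the Cy3 arrays, both by the choice of arrays. The median of -0.053 kept its sign with single arrays left out (-0.069 to -0.032). Centring on the median, scaling, robust variances and averaging of probes kept all 20 calls; arrayWeights kept 19. Without the dye term 17 were kept, and Arf1 (adjusted p = 0.12), Vamp2 (0.071) and Trappc2l (0.062) were lost in limma. No paired analysis was possible because every array already sets 1 null embryo against the pool and there is no second group. Signal over background is unknown.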
